A study of Mus musculus with 7 samples.

Results

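The genes described here are 7 Krüppel-like factor (KLF) genes of the mouse other than the erythroid *Klf1*, namely *Klf2*, *Klf3*, *Klf4*, *Klf6*, *Klf7*, *Klf10* and *Klf13*. They were taken by name, with no threshold on their values, from 17 KLF genes among the 25033 gene symbols of an RNA-seq series. The series holds 7 libraries, 1 per mouse, of lin- bone marrow cells, the cells left once cells bearing markers of mature lineages have been removed. The comparison asked which genes differ when HRP-2, a chromatin reader related to LEDGF/p75, is missing. The 3 wild type mice (*Hrp2*+/+, genotype WT) and 4 knockout mice (*Hrp2*-/-, genotype KO) were untreated and came from a C57BL/6N line with the Hdgfrp2 tm1b (KOMP)Wtsi allele, which disrupts the gene in every cell of the animal and not in blood cells alone. Marrow came from the femur and tibia of mice 6 to 8 weeks old, after lysis of red blood cells, and RNA was taken without culture. Libraries were made from the 3′ ends of transcripts, with 1 fragment per transcript, and the authors deposited whole reads per gene.

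KLF proteins bind DNA through tandem zinc fingers at the carboxyl end, which recognize CACCC and GC-rich boxes in promoters, and they share this binding domain with the SP proteins. The rest of each protein decides whether it activates or represses. *Klf2*, *Klf4*, *Klf6* and *Klf7* are mainly described as activators, *Klf3* recruits the corepressor CtBP, and *Klf10* and *Klf13* recruit the corepressor Sin3. In blood cells the family is known for keeping lymphocytes quiescent (*Klf2*), for monocyte differentiation (*Klf4*) and for responses to inflammation and growth signals, and several members are induced within minutes of a stimulus.

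Libraries held from 3525665 to 5605158 reads on genes, and Rn45s, the ribosomal RNA precursor, took from 4.94% to 20.6% of them. Reads were expressed as CPM (read counts per library scaled to a common total) after edgeR's TMM correction. The floor of 3 reads equals 0.535 to 0.851 CPM before that correction, and it covers counting error only. All 7 KLF genes were above the filter on low counts. The knocked-out gene, listed as *Hdgfl2*, stood at 43.7 to 50.02 CPM in the wild type mice and at 0.498 to 2.53 CPM in the knockout mice. Progenitor markers were present, with *Kit* at 85.1 to 122 CPM and *Cd34* at 185 to 284 CPM in all 7 mice. So were neutrophil markers, with *S100a8* at 1958 to 7152 CPM. Knockout replicate 3 differed from the other mice in sex-linked genes, with *Xist* at 0.561 CPM against 229 to 303 CPM elsewhere and *Ddx3y* at 104 CPM. The labels call the libraries biological replicates.

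No KLF gene passed the test. Of the 11265 genes tested with edgeR's quasi-likelihood test, 2 (0.0178%) had a Benjamini-Hochberg adjusted p under 0.25, the threshold of the study, and none of the 7 KLF genes was among them. Of these 2, 1 gene was higher in the knockout mice (0.00888%). The adjusted p of each of the 7 KLF genes was 0.999. At an unadjusted p under 0.05, 409 genes were past the threshold (3.63%), among them 1 KLF gene, *Klf4*, and 176 (1.56%) were past it with knockout mice higher, as *Klf4* was. All 7 had a log2 fold change above 0, from 0.15 to 0.70 with a median of 0.32. Over all genes tested, 5607 (49.8%) were above 0 and the median was -0.0014. Without knockout replicate 4, all of the 7 but *Klf2* kept a log2 fold change above 0. None of the 7 was free of overlap between the genotypes, against 581 of all genes tested (5.16%) in either direction and 267 (2.37%) with knockout mice higher. In such bulk samples, a change in the number of cells that express a gene and a change in RNA per cell cannot be told apart.

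*Klf4*, which drives monocyte differentiation and is one of the reprogramming factors, lies on the minus strand of chromosome 4 from 55527143 to 55532466 (GRCm38). Wild type replicates 1 to 3 had 210.2 CPM, 153 CPM and 138 CPM. Knockout replicates 1 to 4 had 190 CPM, 253 CPM, 248 CPM and 395 CPM. All 4 knockout mice stood above the wild type mean and 3 of 4 above the highest wild type mouse, while knockout replicate 1 lay within the wild type range. Wild type cells averaged 167 ± 37.8 CPM (SD, n = 3), *HRP-2* knockout cells 272 ± 87.4 CPM (SD, n = 4). The estimate was 1.62-fold (95% interval 1.15 to 2.29), a log2 fold change of 0.70 with a standard error of 0.23. The unadjusted p of edgeR's quasi-likelihood test was 0.00999 and ranked 81 among all genes tested, with an adjusted p of 0.999. Without the filter on low counts the adjusted p of *Klf4* was 0.0045 in the same test, where 41 of 16378 genes were called, and with that filter omitted and edgeR's newer quasi-dispersion method it was 0.959.

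*Klf2*, on the plus strand of chromosome 8 from 72319033 to 72321656, maintains quiescence of lymphocytes and is the shear stress factor of endothelium. Wild type replicates 1 to 3 stood at 546 CPM, 549 CPM and 249 CPM. Knockout replicates 1 to 4 stood at 436 CPM, 415 CPM, 325 CPM and 1599 CPM. Knockout replicate 4 alone exceeded the wild type mean. The other 3 lay between the lowest and the highest wild type mouse. Means were 448 ± 172 CPM (wild type; SD, n = 3) and 694 ± 605 CPM (knockout; SD, n = 4). On the log2 scale the difference was 0.63 with a standard error of 0.72, and its 95% interval ran from -1.20 to 2.45. Without knockout replicate 4 the log2 fold change was -0.19, so 1 mouse set the direction. *Klf2* varied more than most genes of its level. Its biological coefficient of variation was 61.7%, where the trend at that level was 15.6%, and 99.3% of the genes tested varied less.

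*Klf6*, an activator induced early after tissue injury and in inflammatory macrophages, lies on the plus strand of chromosome 13 from 5861482 to 5870394. Wild type replicates 1 to 3 held 545 CPM, 282 CPM and 276 CPM. Knockout replicates 1 to 4 held 303 CPM, 507 CPM, 393 CPM and 939 CPM. Wild type replicate 1 stood above 3 of the knockout mice, and knockout replicate 4 was again the highest of all. Means were 368 ± 154 CPM (SD, n = 3) and 536 ± 281 CPM (SD, n = 4), with a log2 fold change of 0.54 (standard error 0.49, 95% interval -0.68 to 1.76). Omitting knockout replicate 4 left a log2 fold change of 0.12, and omitting wild type replicate 1 gave 0.94. The biological coefficient of variation of *Klf6* was 42.9% against a trend of 15.6%.

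*Klf7*, on the minus strand of chromosome 1 from 64029447 to 64122282, is best known from neurons and is also present in blood progenitors. It was at 19.5 CPM, 16.5 CPM and 21.5 CPM in wild type replicates 1 to 3. The knockout mice, replicates 1 to 4, were at 31.5 CPM, 20.8 CPM, 19.2 CPM and 17.2 CPM. Knockout replicate 1 stood apart and the other 3 lay within the wild type range. Means were 19.2 ± 2.52 CPM (SD, n = 3) and 22.2 ± 6.38 CPM (SD, n = 4), and they differed by 0.21 on the log2 scale (standard error 0.25). Without knockout replicate 1 it was -0.0052.

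*Klf3* encodes the CtBP-recruiting repressor and lies on the plus strand of chromosome 5 from 64803388 to 64832901. It was the lowest of the 7, at 13.2 CPM, 14.6 CPM and 11.4 CPM in wild type replicates 1 to 3. In the knockout mice, replicates 1 to 4, it stood at 17.9 CPM, 13.9 CPM, 12.0 CPM and 16.2 CPM. These values rest on 43 to 92 reads per mouse, and the genotypes overlapped. Wild type mice averaged 13.05 ± 1.57 CPM (SD, n = 3) and knockout mice 14.99 ± 2.59 CPM (SD, n = 4), which is 0.20 on the log2 scale (standard error 0.26).

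*Klf10*, first described as an early gene induced by TGF-β, lies on the minus strand of chromosome 15 from 38291463 to 38300706. Wild type replicates 1 to 3 were at 38.8 CPM, 21.6 CPM and 26.6 CPM, and knockout replicates 1 to 4 at 35.0 CPM, 49.5 CPM, 32.5 CPM and 28.2 CPM. The highest wild type mouse exceeded 3 of the 4 knockout mice. Means were 29.0 ± 8.89 CPM (SD, n = 3) and 36.3 ± 9.23 CPM (SD, n = 4), with a log2 fold change of 0.32 (standard error 0.24).

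*Klf13* binds the *Ccl5* promoter in T cells and lies on the minus strand of chromosome 7 from 63886351 to 63938915. It was at 203 CPM, 170 CPM and 215 CPM in wild type replicates 1 to 3. Knockout replicates 1 to 4 were at 230.5 CPM, 234 CPM, 183 CPM and 224 CPM. It was the steadiest of the 7, with its highest mouse at 1.38 times its lowest, where the ratio for *Klf2* was 6.42. Its biological coefficient of variation was 14.5%, close to the trend of 15.6% at its level. Means were 196 ± 23.6 CPM (SD, n = 3) and 218 ± 23.5 CPM (SD, n = 4), with 0.15 as the log2 fold change (standard error 0.14, 95% interval -0.14 to 0.44). The interval of *Klf13* was the narrowest of the 7, while those of *Klf2* and *Klf6* allowed large differences in either direction.

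**Figure D1:**
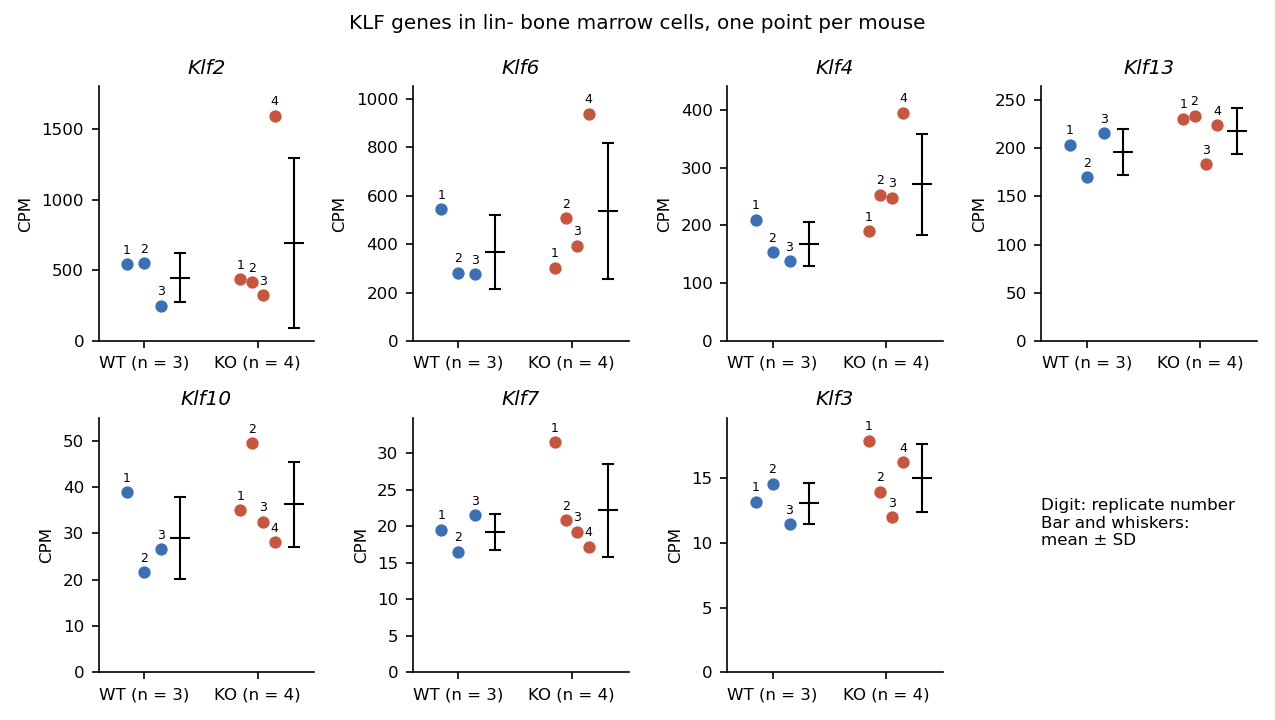
Level of each KLF gene in CPM (vertical axes, linear and starting at 0, each with its own scale) in every mouse, with wild type (WT) mice in blue and knockout (KO) mice in red. Digits are replicate numbers, and bars with whiskers show mean ± SD. The genotypes overlap in all 7 panels, and knockout replicate 4 is the highest mouse for *Klf2*, *Klf6* and *Klf4*.

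Reads on *Klf3*, *Klf7* and *Klf13* are less certain than the others, because each of them overlaps other annotated genes on the opposite strand, and the strand used in counting is not stated. *C230096K16Rik* at *Klf3* and *Mir6899* at *Klf7* lie on the same strand as the KLF gene. The overlapping genes *Mir6899* (within *Klf7*) and *E030018B13Rik* (within *Klf13*) held 0 and 4 reads in all mice together. The others, among them *Gm20033* at *Klf3* and *Gm13748* at *Klf7*, have no counts of their own here. No annotated gene overlaps *Klf2*, *Klf4*, *Klf6* or *Klf10*.

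The 7 genes fell into an upper tier of 4 and a lower tier of 3 by level. Since each transcript gives 1 fragment in these libraries, levels of different genes were compared in CPM without division by gene length. *Klf2* exceeded 98.5% of the genes tested in mean level, *Klf6* 97.8%, *Klf4* 93.9% and *Klf13* 93.2%. *Klf10* exceeded 54.8%, *Klf7* 42.2% and *Klf3* 32.1%. The step from *Klf13* to *Klf10* was the only one between neighbours in this order without overlap over the 7 mice, with *Klf13* at 170 CPM or more and *Klf10* at 49.5 CPM or less. *Klf2* stood above *Klf6* in 4 of 7 mice and *Klf4* above *Klf13* in 4 of 7, so the order within these pairs did not hold from mouse to mouse. *Klf6* exceeded *Klf4*, *Klf10* exceeded *Klf7* and *Klf7* exceeded *Klf3* in 7 of 7 mice each, although their ranges overlapped.

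Together the 7 genes held between 87.3% and 94.0% of the reads on the 17 KLF genes. Their summed level was 1576 CPM, 1207 CPM and 938 CPM in the wild type mice, in order of replicate number. For knockout replicates 1 to 4 it was 1244 CPM, 1492 CPM, 1213 CPM and 3218 CPM. Knockout replicates 1 to 3 sat within the wild type range, and knockout replicate 4 above it. *Klf2* made up from 26.5% (wild type replicate 3) to 49.7% (knockout replicate 4) of the sum. The ratio of *Klf4* to *Klf2* ranged from 0.247 in knockout replicate 4 to 0.764 in knockout replicate 3, and was 0.279 to 0.556 in wild type cells. Both genes were at their highest in knockout replicate 4, where that ratio was lowest.

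Leaving out 1 mouse at a time showed which mice each estimate rests on. The log2 fold change of *Klf4* stayed between 0.46 (without knockout replicate 4) and 0.90 (without wild type replicate 1), and its unadjusted p was 0.02 without knockout replicate 4 and 0.0702 without wild type replicate 2 in edgeR's quasi-likelihood test. That of *Klf10* was 0.60 without wild type replicate 1 and 0.13 without knockout replicate 2. *Klf13* ranged from 0.058 (without wild type replicate 2) to 0.23 (without knockout replicate 3), and *Klf3* from 0.10 (without knockout replicate 1) to 0.29 (without knockout replicate 3). Without wild type replicate 1, 3 genes no longer overlapped between the genotypes, namely *Klf4*, *Klf6* and *Klf10*, where 12.5% of all genes tested did not overlap. Without knockout replicate 1 this held for *Klf4* (9.48% of all genes), and without knockout replicate 3, the mouse with the deviating sex-linked genes, for *Klf13* (9.23%). No KLF gene had an adjusted p under 0.25 in any of these 7 fits.

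**Figure D2:**
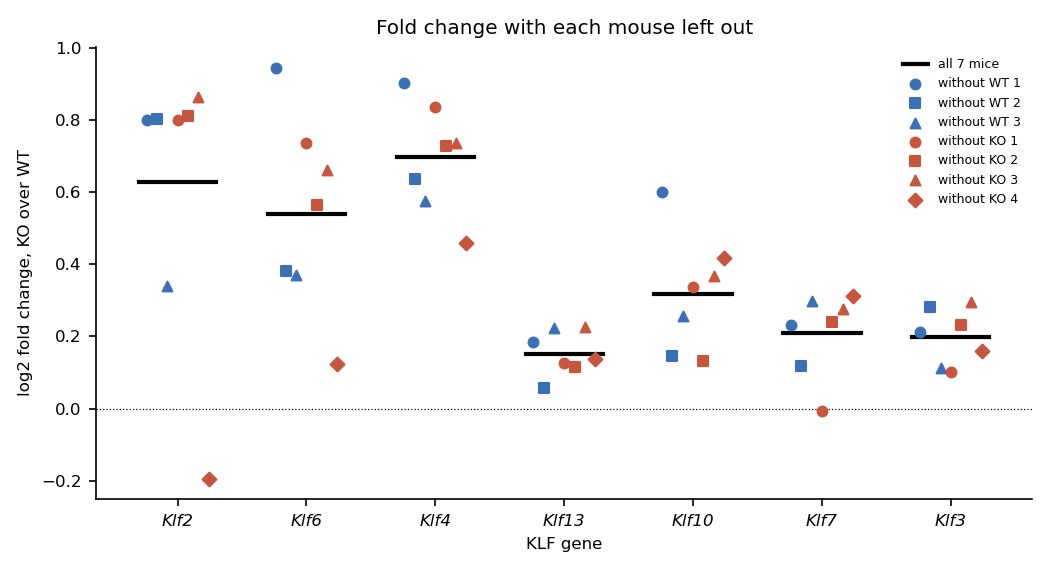
Log2 fold change of each KLF gene, knockout over wild type (vertical axis), from all 7 mice (black bar) and with each mouse left out (blue for wild type mice, red for knockout mice, shape by replicate). Points below the dotted line at 0 are *Klf2* without knockout replicate 4 (-0.19) and *Klf7* without knockout replicate 1 (-0.0052).

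*Klf2*, *Klf4* and *Klf6* had their highest level in the same mouse, and the sequences just before their start sites are given to show what these promoters hold. RefSeq windows of 250 bases were found for 6 of the 7 genes, all but *Klf10*. The windows are on GRCm38.p6, placed by the RefSeq start of each gene. The stretches printed run 5′ to 3′ on the strand of the gene and stop before its first transcript base in GENCODE M21. Capitals mark matches to GGGCGG, the GC box bound by SP and KLF proteins, and to TGACG, the core of the cyclic AMP response element, on either strand. The printed stretches cover chr4:55532476-55532725 (minus strand) for *Klf4*, chr8:72318812-72319032 (plus strand) for *Klf2* and chr13:5861239-5861481 (plus strand) for *Klf6*.
Klf4: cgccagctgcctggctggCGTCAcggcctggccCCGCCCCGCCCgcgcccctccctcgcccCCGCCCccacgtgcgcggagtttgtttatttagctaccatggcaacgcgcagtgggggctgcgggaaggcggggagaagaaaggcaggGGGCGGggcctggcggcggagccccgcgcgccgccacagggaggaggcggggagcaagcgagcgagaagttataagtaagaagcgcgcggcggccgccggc
Klf2: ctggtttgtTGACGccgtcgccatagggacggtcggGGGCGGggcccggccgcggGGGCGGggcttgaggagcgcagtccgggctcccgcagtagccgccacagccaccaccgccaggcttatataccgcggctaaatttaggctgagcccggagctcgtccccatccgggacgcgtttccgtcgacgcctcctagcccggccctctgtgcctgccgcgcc
Klf6: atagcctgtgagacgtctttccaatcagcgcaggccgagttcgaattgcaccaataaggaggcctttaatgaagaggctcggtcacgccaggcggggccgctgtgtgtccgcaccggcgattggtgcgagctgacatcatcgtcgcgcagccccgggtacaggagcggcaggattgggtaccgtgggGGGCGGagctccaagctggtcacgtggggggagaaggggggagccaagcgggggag
Over the 250 bases the GC content was 74.0% for *Klf4*, 71.2% for *Klf2* and 64.8% for *Klf6*. GGGCGG occurred 4 times in the window of *Klf4*, 2 times in that of *Klf2* and 1 time in that of *Klf6*. It also occurred 6 times in the window of *Klf3*, 3 times in that of *Klf13* and 1 time in that of *Klf7*, and 32.7% of 32851 windows in the genome held it. In the GENCODE annotation the gene *Klf7* begins upstream of its whole window, so that window is not upstream sequence. The windows of *Klf2*, *Klf3* and *Klf6* run past the start of the gene, so they are upstream sequence only in part. TGACG was found 1 time each in the windows of *Klf2*, *Klf4* and *Klf13*, where 17.8% of all windows held it, and was searched after the expression data had been seen. The full response element TGACGTCA, which contains TGACG, was in 1.55% of all windows. The AP-1 site TGANTCA was in 6.75%, the KLF box CCACACCC in 3.2% and the CArG box of serum response factor in 1.47%. None of these was present, on either strand, in the windows of the 6 KLF genes. A match or its absence describes only these letters.

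Across the 7 mice, *Klf4* and *Klf6* followed each other most closely of the 21 pairs of KLF genes. Pearson's r on log2(CPM + 1) was 0.918 (exact permutation p = 0.00456, adjusted over 21 pairs 0.0958), and Spearman's rho was 0.893 (exact permutation p = 0.0123, adjusted 0.258). It was 0.728 without the 2 mice farthest from the median of *Klf4*, and 0.979 after the mean of each genotype had been subtracted. *Klf2* and *Klf6* had r = 0.792 (exact permutation p = 0.0367, adjusted 0.385) with rho = 0.536 (exact permutation p = 0.236, adjusted 0.687). This relation rested on the extreme mice, since r was -0.063 without the 2 farthest from the median of *Klf2*. For *Klf2* and *Klf4* r went from 0.727 (exact permutation p = 0.0724, adjusted 0.507) to -0.721 in the same way, with rho = 0.357 (exact permutation p = 0.444, adjusted 0.687). With all 7 mice kept and the mean of each genotype subtracted, r was 0.780 for *Klf2* and *Klf6* and 0.805 for *Klf2* and *Klf4*. Of the 21 values of r, 17 were positive, and none had an adjusted p under 0.05.

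The genes most like each KLF gene over the 7 mice were looked up among 11264 genes by r on log2(CPM + 1), as a description. *Klf4* was closest to *Brd9* (0.986), *Tcf25* (0.986) and *Atp6v0b* (0.981). *Klf6* was closest to *Dhdh* (0.983), *Dnajc1* (0.964) and *Fosb* (0.964), the last an AP-1 subunit of the immediate-early class. *Klf2* was closest to the collagen gene *Col1a1* (0.973), followed by *Thrap3* (0.962) and *Rabl6* (0.961). *Klf13* was closest to *Ncl* (0.989) and *Pelo* (0.987), *Klf7* to *Sf1* (0.989), *Emc1* (0.984) and *Denr* (0.957). *Klf10* was closest to *Rassf4* (0.964), *Ndc80* (0.951) and *Lrp8* (0.946), and *Klf3* to *Rusc1* (0.957), *5830454E08Rik* (0.950) and *Atg14* (0.950). These are among the highest of 11264 values each, from 7 mice.

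**Figure D3:**
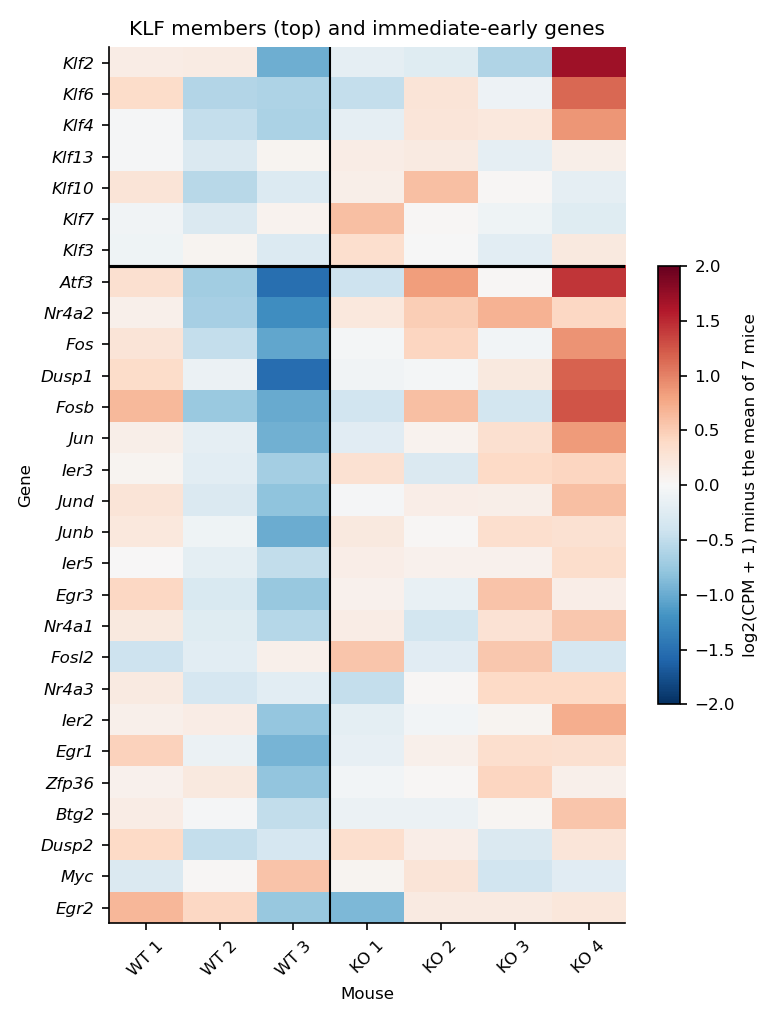
Level of the 7 KLF genes (top) and 21 immediate-early genes (below the black line) in each mouse, as log2(CPM + 1) minus the mean of the 7 mice (colour scale, red above the mean and blue below). Wild type replicate 3 is blue for most immediate-early genes and knockout replicate 4 is red for *Klf2*, *Klf6*, *Klf4* and many of them.

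Immediate-early genes, the fast class of stimulus-induced genes to which *Klf2*, *Klf4*, *Klf6* and *Klf10* are often counted, were listed separately without the KLF genes. Of 21 tested, 19 had a log2 fold change above 0 and 2 below, with a median of 0.37, and 0 had an adjusted p under 0.25. At an unadjusted p under 0.05, 3 were past the threshold (3.63% of all genes were), and 2 had no overlap between the genotypes (5.16% of all genes). *Nr4a2*, an orphan nuclear receptor, had the smallest p. It was at 67.6 CPM, 39.5 CPM and 26.0 CPM in wild type replicates 1 to 3 and at 72.7 CPM, 88.7 CPM, 102 CPM and 84.5 CPM in knockout replicates 1 to 4. Its log2 fold change was 0.96 (standard error 0.25), and edgeR's quasi-likelihood test gave it an adjusted p of 0.811. *Ier5* had 0.38, *Ier3* 0.49, and the AP-1 subunits *Jund* 0.44 and *Junb* 0.42. Summed over the list, the level was 3581 to 7474 CPM in wild type and 6233 to 10302 CPM in knockout mice, with the lowest sum in wild type replicate 3 and the highest in knockout replicate 4. Of the 21 genes, 12 were highest in knockout replicate 4 and 16 lowest in wild type replicate 3. Knockout replicate 4 was the highest mouse for 14.4% of all genes tested, and wild type replicate 3 the lowest for 1758 of 11265. The lowest mouse was wild type replicate 2 for 3 and wild type replicate 3 for 4 of the 7 KLF genes, where wild type replicate 2 was the lowest for 2013 of all genes tested. The part of these genes in the KLF values was not tested.

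The other KLF genes were mostly low in level. Of 10 listed, 6 were tested, with 5 above 0, 1 below and a median log2 fold change of 0.24, and 0 past an adjusted p under 0.25. *Klf9*, a target of glucocorticoid receptor, was the highest of these and had a log2 fold change of -0.03, at 43.7 to 93.9 CPM in wild type and 41.1 to 96.8 CPM in knockout mice. *Klf16* had 0.36 and *Klf11*, a TGF-β-induced gene like *Klf10*, 0.24. *Klf5* had 0.25 and *Klf8*, a CtBP-recruiting repressor like *Klf3*, 0.02. *Klf1*, the erythroid factor, was at 2.63 to 8.12 CPM in wild type and 2.53 to 20.7 CPM in knockout mice, with a log2 fold change of 0.73 (standard error 0.61). *Klf12*, *Klf15* and *Klf17* did not reach the filter, and *Klf14* was listed at 0 in every mouse.

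**Figure D4:**
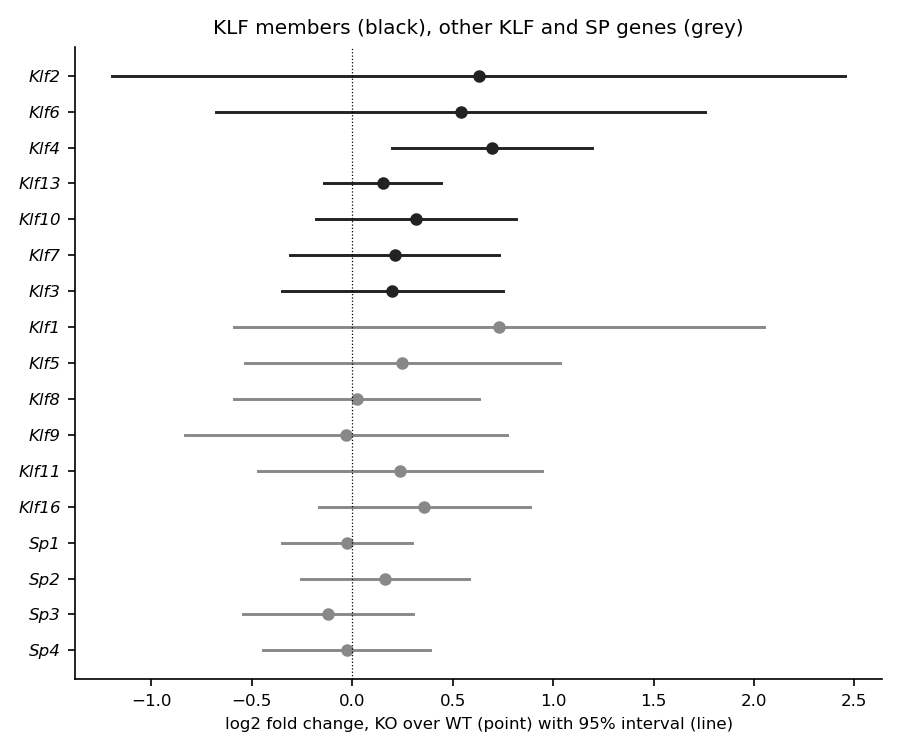
Log2 fold change, knockout over wild type (horizontal axis), with its 95% interval for the 7 KLF genes (black) and for the other KLF and SP genes tested (grey). The 7 black points lie right of 0, from 0.15 to 0.70, and the interval of *Klf4* is the only one that does not cross 0.

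The SP genes share the zinc fingers of the KLF family. Of 9 listed, 4 were tested, with 1 above 0 and 3 below. The log2 fold changes were -0.03 for *Sp1*, 0.16 for *Sp2*, -0.12 for *Sp3* and -0.03 for *Sp4*. None had an adjusted p under 0.25, and *Sp5* and *Sp6* were listed at 0 in every mouse. Whether KLF and SP genes differ from each other was not tested.

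Partners of KLF proteins were spread evenly around 0. Of 10 cofactors and ubiquitin ligases, 5 had a log2 fold change above 0 and 5 below, with a median of -0.019, and none was past either threshold. *Wwp1*, a ligase that marks the KLF2 protein for degradation, had -0.43. The Sin3 corepressor genes *Sin3a* and *Sin3b* had 0.23 and 0.14. *Sin3b* was the 1 gene of these 10 without overlap between genotypes (5.16% of all genes), with 177 to 189 CPM in wild type and 190.1 to 218 CPM in knockout mice. The acetyltransferase gene *Crebbp* had 0.18 and *Hdac2* had -0.12.

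Genes that act upstream of the family were also without a call. Of 11, 7 had a log2 fold change above 0 and 4 below, with a median of 0.068. *Spi1*, which encodes PU.1 and drives *Klf4* in monocytes, was the 1 of the 11 without overlap between genotypes (5.16% of all genes), with 145 to 154 CPM in wild type and 163 to 175 CPM in knockout mice, and its log2 fold change was 0.17 (standard error 0.13). *Mapk7*, the ERK5 kinase that induces *Klf2* and *Klf4* through MEF2 proteins, had 0.28 and *Mef2d* had 0.16. The TGF-β receptor genes *Tgfbr1* and *Tgfbr2*, which act above *Klf10*, had -0.15 and -0.39.

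Of 14 known KLF targets, 13 were tested, and *Nos3* was listed at 0 in every mouse. For 9 the log2 fold change was above 0 and for 4 below, with a median of 0.16, and none had an unadjusted p under 0.05. *Cdkn1a*, the p21 cell cycle inhibitor activated by *Klf4* and *Klf6*, had the smallest p. It was at 17.8 to 35.6 CPM in wild type and 33.9 to 44.3 CPM in knockout mice, with a log2 fold change of 0.45 (standard error 0.23). *Lgals3* had 0.32, *Itgam*, the CD11b gene of monocytes and neutrophils, 0.27 and *Itgb7* 0.19.

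Cell type markers were summed in each mouse, with no test of the sums. Over all genes tested, 49.8% had a log2 fold change above 0, 3.63% an unadjusted p under 0.05 and 5.16% no overlap between the genotypes. The summed level of 8 monocyte markers was 2259 to 2301 CPM in wild type and 2486 to 3313 CPM in knockout mice, without overlap, and 7 of the 8 had a log2 fold change above 0, 3 of them at an unadjusted p under 0.05. Within that list *Ly6c2* took 1179 to 1965 CPM. The 9 neutrophil markers were all above 0 and summed to 7900 to 11027 CPM in wild type and 8995 to 24806 CPM in knockout mice. Of 8 macrophage markers 7 were tested and all 7 were below 0, 5 of them at an unadjusted p under 0.05, with sums of 325 to 396 CPM in wild type and 220.0 to 282 CPM in knockout mice. Stem and progenitor markers, of which 7 were tested and 7 were below 0, summed to 667 to 840.3 CPM in wild type and 616 to 760 CPM in knockout mice. None of these genes had an adjusted p under 0.25. Their part in the KLF values was not tested.

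Knockout replicate 4, the mouse with the highest *Klf2*, *Klf4* and *Klf6*, also stood apart in the summed levels of megakaryocyte and stromal markers. Its 5 megakaryocyte markers summed to 863 CPM, while the other 6 mice had 102 to 356 CPM, with the platelet genes *Pf4* at 572 CPM and *Ppbp* at 87.7 CPM. *Gp1ba* of that list was at 4.73 CPM there, against 1.12 to 5.27 CPM elsewhere. Its 5 stromal markers summed to 839.9 CPM, against 23.6 to 123 CPM elsewhere, with *Col1a1* at 518 CPM and *Col1a2* at 302 CPM. That sum rested on the collagen genes. *Cxcl12* was at 18.9 CPM there, against 10.5 to 96.4 CPM elsewhere, and *Lepr* and *Pdgfra* were at 0 CPM. Endothelial markers, of a cell type rich in *Klf2*, summed to 63.0 CPM in that mouse and 50.7 to 79.0 CPM in the others. B cell markers were also highest there, at 328 CPM against 70.0 to 201 CPM. T cell markers were 94.2 CPM there, against 96.0 to 174 CPM elsewhere, and NK cell markers 365 CPM, against 354 to 480.2 CPM. Erythroid markers were 560 CPM, against 354 to 641 CPM, with *Hba-a1* and *Hbb-bt* listed at 0 in every mouse. The Rn45s share of that library was 18.6%. The part of these cells and of Rn45s in the KLF values of that mouse was not tested. With the Rn45s share as a covariate, the log2 fold change was 0.74 for *Klf4*, 0.73 for *Klf2*, 0.55 for *Klf6*, 0.22 for *Klf10*, 0.20 for *Klf3*, 0.11 for *Klf13* and 0.068 for *Klf7*, the last against 0.21 without it.

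**Figure D5:**
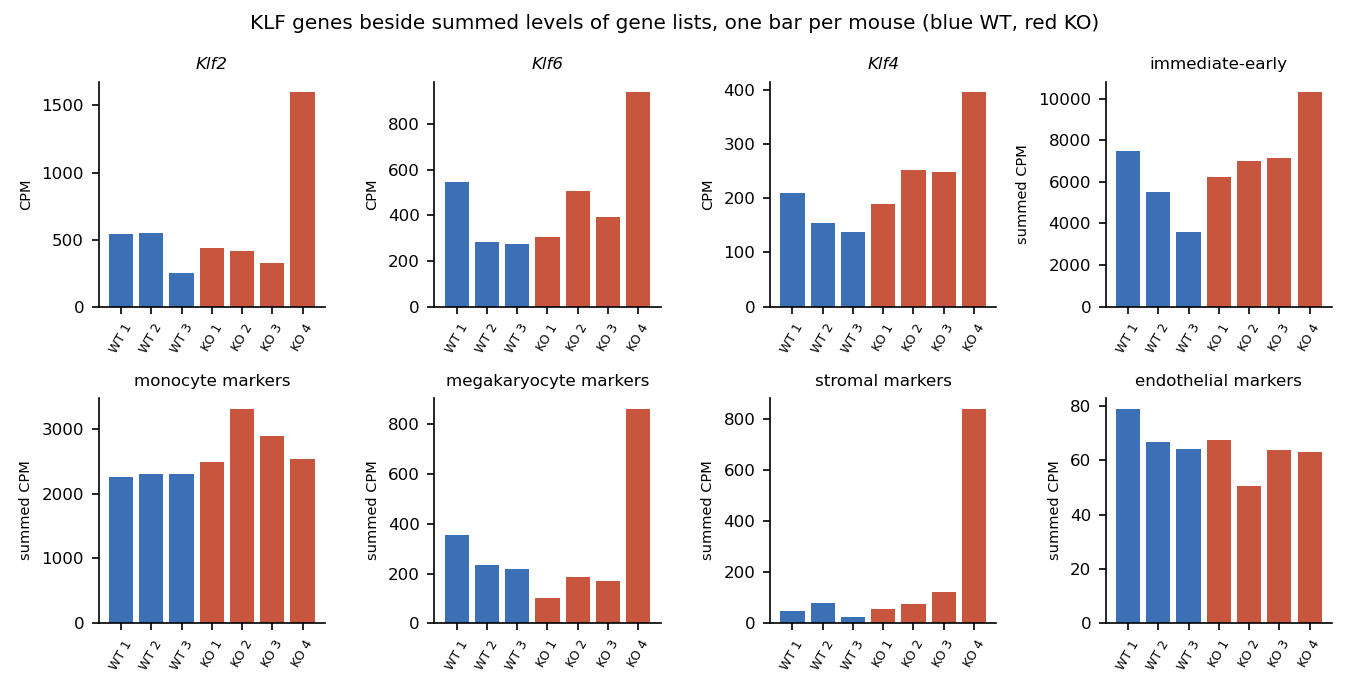
Levels of *Klf2*, *Klf6* and *Klf4* and summed levels of 5 gene lists in each mouse (vertical axes in CPM, linear and starting at 0, each with its own scale; blue bars wild type, red bars knockout). Knockout replicate 4 has the highest bar for the KLF genes, the immediate-early list (10302 CPM), megakaryocyte markers (863 CPM) and stromal markers (839.9 CPM), but not for monocyte or endothelial markers.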

How the data were processed

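RNA of lin- bone marrow cells from 3 wild type and 4 knockout mice was sequenced from transcript 3′ ends. The authors aligned reads to GRCm38 with STAR, tested genes with DESeq2 and deposited whole-number read counts per gene symbol, not normalized. Tally lines closing each table were left out, among them reads on no gene (27.0% to 31.6%). Which strand was counted is not given in the sources used here. Of 25033 symbols, 97.6% are in GENCODE M21, the source of coordinates, and promoter windows are from RefSeq.

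Counts were filtered with filterByExpr, scaled with TMM and compared with the robust quasi-likelihood test of edgeR 4.0.16 (R 4.3.3), with Benjamini-Hochberg adjustment over all genes tested and no block. Means and SDs are of CPM with these factors, and p-values measure only the spread between these mice. Any pair of same-genotype libraries differed beyond sampling noise. In a test on simulated data with 11069 genes, 70 of 99 genes set to a log2 change of 1 and 91 of 91 set to 2 were called, and 42 of 203 calls were false. Correlations used two-sided exact permutation tests (scipy 1.17.1). Alternatives were DESeq2 1.42.0, limma-voom (limma 3.58.1), other scaling, filters and dispersion settings, a replicate block, Rn45s settings and the omission of each mouse.

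The KLF genes and all lists were chosen with earlier results of these data known. Named were the 7 genes, other KLF and SP genes tested, up to 5 genes per cofactor, upstream, target and immediate-early list by smallest p, the 3 genes most like each KLF gene, and library checks. A gene close to *Klf13* and a target gene that this rule names are not reported here. The choice of marker genes named followed their values.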

Additional observations from a re-analysis of the deposited data

Results flagged for a closer look

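Among 72 genes of the KLF, SP, cofactor, upstream, target and immediate-early lists, 6 had a knockout mouse whose distance from the other 3 was large for the range of the 4 knockout mice. Chance gives this in about 1 of 20 groups, or 3.6 of 72 genes. The wild type mice, being 3, were not examined this way. *Klf2* stood at 1599 CPM in knockout replicate 4, against 325 to 436 CPM in the other knockout mice. In the same mouse *Dusp1*, an immediate-early phosphatase gene, stood at 1066 CPM, against 448 to 543 CPM. Knockout replicate 3 had *Sp3* at 83.1 CPM, above the 62.8 to 65.5 CPM of the others, and *Hdac1* at 51.8 CPM, below their 58.6 to 59.7 CPM. Knockout replicate 1 was low in *Hdac2*, at 71.1 CPM against 88.1 to 90.8 CPM, and in *Egr2*, at 2.33 CPM against 5.98 to 6.23 CPM.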

How the results depend on the processing

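The log2 fold changes of *Klf3*, *Klf4*, *Klf6*, *Klf10* and *Klf13* stayed above 0 in all 20 alternatives, from 0.46 to 0.90 for *Klf4* and from 0.12 to 0.94 for *Klf6*. That of *Klf2* was -0.12 with the replicate block and -0.19 without knockout replicate 4, and that of *Klf7* was -0.0052 without knockout replicate 1. The replicate block also sets knockout replicate 4 aside, since no wild type mouse has its number. Omitting each mouse gave -0.19 to 0.86 for *Klf2*, -0.0052 to 0.31 for *Klf7*, 0.46 to 0.90 for *Klf4*, 0.12 to 0.94 for *Klf6*, 0.13 to 0.60 for *Klf10*, 0.058 to 0.23 for *Klf13* and 0.10 to 0.29 for *Klf3*. Without the filter on low counts *Klf4* had 0.70 with an adjusted p of 0.0045, and was the 1 KLF gene among 41 genes called. In DESeq2 its adjusted p was 0.423, and over the other alternatives it was 0.507 or higher. The cause was not tested. The number of genes called was 2. It was 21 with DESeq2, 41 (of 16378 tested) without the filter, 1 with at least 10 counts in every mouse, 1 with the replicate block, 8 with the Rn45s share as covariate and 2 to 7 when a mouse was omitted. Alternatives chosen after seeing the data gave 29 with the likelihood ratio test, 4 without robust estimation, 4 with the newer quasi-dispersion method and 15 with that method and no filter. The number of KLF genes without overlap was 0, where 5.16% of all genes tested did not overlap. When a mouse was omitted it was 0 to 3, where 8.98% to 13.2% of all genes did not overlap.

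Replicate numbers did not pair the mice: deviations of same-numbered mice correlated at -0.023, -0.189 and -0.142, no mouse matched its own number best, and with the replicate block 0 KLF genes were called. Groups of 3 and 4 mice and 43 to 92 reads on *Klf3* limit precision. An adjusted p that misses the threshold does not show equal levels.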
